A study of Homo sapiens with 4 samples.

Results

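The 8 genes described here make, sense or export cholesterol: SREBF1, SREBF2, HMGCS1, SQLE, IDI1, FDFT1, INSIG1 and ABCA1. Their names define the group. The rule uses no measured value, although earlier results of these data were known when it was written. All 8 are among the 28283 genes of the deposited FPKM table and among the 12268 genes kept, which reached an FPKM of 1 in the input of shNC, of shY2-2 or of both. FPKM is a fragment count scaled by exon length and by the mapped fragments of the library. RNA came from A549, a human lung adenocarcinoma cell line with a control genotype (shNC, the vector control, also labelled PLKO_1) or with YTHDF2 knockdown by an shRNA (shY2-2). YTHDF2 is a cytoplasmic protein that binds N6-methyladenosine (m6A) in mRNA and recruits deadenylases to it. For each condition, there was 1 input library, made from fragmented poly(A) RNA, and 1 IP library, made from the part of the fragments that an m6A antibody pulled down, 4 libraries in all. With 1 library of a kind per condition, no difference below has a replicate check, and none was tested. The knockdown libraries rest on 1 shRNA, and a lower FPKM cannot tell fewer cells that express a gene from less RNA per cell.

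The FPKM of YTHDF2 itself was 3.56 in shNC and 1.02 in shY2-2, a log2 ratio of -1.18. Ratios here are log2((FPKM shY2-2 + 1)/(FPKM shNC + 1)), which understate the difference of genes with low FPKM. How many fragments stand behind each FPKM is unknown, so no interval from depth can be given. Over the genes kept, the median ratio was 0.00, and ratios ran from -0.76 at the 5th percentile to 0.60 at the 95th. Of these genes, 5.38% were more than 1.5-fold higher in shY2-2 and 8.92% more than 1.5-fold lower. Past 2-fold, the shares were 0.986% higher and 2.14% lower.

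Cells adjust their cholesterol through SREBP proteins, transcription factors that are made as membrane proteins of the endoplasmic reticulum. When sterols are low, SCAP carries SREBP to the Golgi, where the proteases encoded by MBTPS1 and MBTPS2 release the part that enters the nucleus and turns on genes of sterol synthesis and uptake. When sterols are high, INSIG proteins hold SCAP and SREBP back. Surplus cholesterol leaves the cell through the transporter ABCA1, whose gene is activated by liver X receptors.

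The genes fell on both sides of 0. IDI1, FDFT1, INSIG1, HMGCS1 and SQLE had a higher FPKM in the shY2-2 input, and SREBF1, SREBF2 and ABCA1 a lower one. A ratio above 0 was found for 50.3% of all genes kept. Of the 8 genes, 1 (ABCA1) was past 1.5-fold on this scale and none was past 2-fold. The plot of RNA levels shows the pair of values of each gene.

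**Figure D1:**
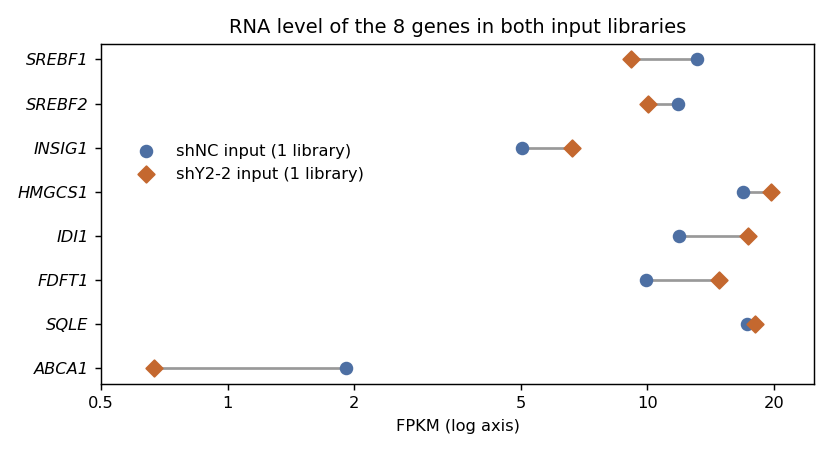
RNA level (FPKM, log axis) of the 8 genes in the shNC input (circles) and the shY2-2 input (diamonds), 1 library each, joined by a line. The enzymes and INSIG1 lie to the right in shY2-2, while SREBF1, SREBF2 and ABCA1 lie to the left, with ABCA1 at 1.92 in shNC and 0.668 in shY2-2.

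Both genes for SREBP transcription factors were lower in the knockdown library. SREBF1 (ENSG00000072310, chromosome 17 of GRCh38, 17810399 to 17837002, - strand) encodes SREBP1, which activates fatty acid genes among others. Its FPKM was 13.1 in shNC and 9.13 in shY2-2, a log2 ratio of -0.48 that lies at percentile 12.5 of all genes kept. SREBF2 (ENSG00000198911, chromosome 22, 41833079 to 41907308, + strand) encodes SREBP2, the main activator of sterol synthesis. Its FPKM was 11.8 in shNC and 10.02 in shY2-2, a log2 ratio of -0.22 at percentile 28.4. The difference of SREBF1 was thus the larger of the pair, and neither left the range of the central 90% of genes.

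Each SREBP gene carries a miR-33 gene in an intron, and both miRNAs share a seed. The mature sequences in RefSeq (GRCh38) are shown because the miR-33 family is known to repress ABCA1. Capitals mark bases 2 to 8, the seed UGCAUUG. The first lies within SREBF2 at chr22:41900949-41900969, + strand, and the second within SREBF1 at chr17:17813897-17813916, - strand.
hsa-miR-33a-5p: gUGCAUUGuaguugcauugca
hsa-miR-33b-5p: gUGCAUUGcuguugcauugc
The libraries hold fragmented poly(A) RNA, so the miRNAs themselves were not measured.

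SREBF2 is itself a target of SREBP. The letters TCACNCCAC, a form of the sterol regulatory element to which SREBP binds, were searched on both strands of the RefSeq promoter windows, from 250 nt before to 50 nt after each start. Of 35116 windows, 396 (1.13%) held them. For 6 of the 8 genes there were 9 windows, and the only match was in SREBF2, 133 nt before the RefSeq start (motif in capitals, chr22:41832972-41832980, + strand):
SREBF2 promoter: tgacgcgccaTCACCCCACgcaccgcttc
SQLE and FDFT1 were not in the table of windows. Over the 4 gene lists described below, 1 of 58 windows of 42 genes held the letters, which was that of SREBF2. The absence of these letters from a window says nothing about binding of SREBP to that gene.

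INSIG1 (ENSG00000186480, chromosome 7, 155297776 to 155310235, + strand), which retains SCAP in the endoplasmic reticulum and is itself turned on by SREBP, was higher in the knockdown library. Its FPKM was 5.035 in shNC and 6.60 in shY2-2, a log2 ratio of 0.33 at percentile 82.3. In the list of genes for SREBP control and uptake, all 12 were kept, 8 were higher and 4 lower in shY2-2, and the median ratio was 0.23 (all genes 0.00). Among the highest ratios was that of MBTPS1, the protease that first cuts SREBP (0.55, FPKM 10.38 and 15.65). The lowest were SREBF1 and SREBF2.

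The enzymes were higher in shY2-2 along most of the sterol pathway. All 21 genes of the sterol synthesis list were kept, and 18 were higher and 3 lower in shY2-2, with a median log2 ratio of 0.34 against 0.00 for all genes. The background share of higher genes is the 50.3% given above. The difference was small for each gene: LSS, which closes the squalene epoxide into lanosterol, had the highest ratio (0.67, FPKM 3.36 and 5.96), followed by MVD, the mevalonate diphosphate decarboxylase (0.64, FPKM 2.975 and 5.20). These were the only members of the list more than 1.5-fold higher, 2 of 21 beside 5.38% of all genes. With each ratio set against genes of like length, only LSS (0.75) stayed past 1.5-fold, beside 579 of 12202 genes that were higher by more than this. With genes of like GC content neither LSS nor MVD did (0.56 and 0.53), while MSMO1 (0.75) and IDI1 (0.73) passed. With that centring, 587 of the 12202 genes were more than 1.5-fold higher. The genes that act from acetyl-CoA to farnesyl diphosphate were higher in 7 of 8 cases (median 0.44). Those from FDFT1, which makes squalene, to cholesterol were higher in 11 of 13 (median 0.28).

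SC5D, a desaturase of the last steps, had the lowest ratio of the list. Its FPKM was 2.95 in shNC and 1.27 in shY2-2, a log2 ratio of -0.80 at percentile 4.23, and it was the only gene of the list more than 1.5-fold lower, beside 8.92% of all genes. Set against genes of like GC content it was at -0.58 and no longer past 1.5-fold.

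**Figure D2:**
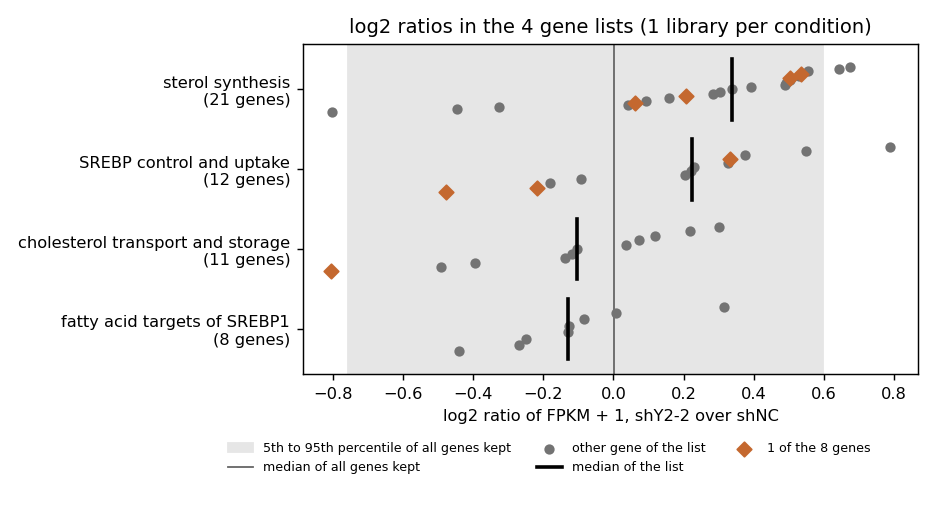
log2 ratio of FPKM + 1, shY2-2 over shNC, of each gene kept in 4 lists, with vertical order within a list by rank only. Diamonds are the 8 genes, circles the other genes of a list, black bars the list medians (0.34, 0.23, -0.11 and -0.13 from top to bottom), and the grey band holds the central 90% of all genes. Most sterol synthesis genes lie right of 0 and most fatty acid targets left of it.

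HMGCS1 (ENSG00000112972, chromosome 5, 43289395 to 43313512, - strand) condenses acetyl-CoA and acetoacetyl-CoA to HMG-CoA. Its FPKM was 16.9 in shNC and 19.7 in shY2-2, a log2 ratio of 0.21 at percentile 72.0. It had the largest length of m6A peaks of the 8 genes. A peak is a stretch where exomePeak found more IP than input fragments in 1 condition, and its fold enrichment is the IP over input ratio. On its own strand HMGCS1 had 4 peaks in each list, over 2399 nt in shNC and 1233 nt in shY2-2, of which 1203 nt were shared. Most of this length lies in the peaks near the start codon and over the stop codon. The stop codon peak has 721 nt in the 3′ UTR in shNC and 332 nt in shY2-2. A further shNC peak of 151 nt lies wholly within the 3′ UTR (fold enrichment 1.37, FDR 0.134).

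The HMGCS1 peak near the start codon differed most between the lists. In shNC a peak of 719 nt ran from 43298466 to 43313171 over 3 exonic blocks, with a fold enrichment of 4.96 and an FDR of 3.47e-09. It covers 69 nt of the 5′ UTR and 448 nt of coding sequence of the reference transcript. In shY2-2 the same stretch held 2 shorter peaks, of 241 nt and 61 nt, with fold enrichments of 1.33 (FDR 0.00105) and 1.47 (FDR 0.215). The log2 ratio of fold enrichments was -1.90, at percentile 1.04 of the 17172 pairs of overlapping peaks over all genes. A fold enrichment depends on how a peak was bounded, and the peak bounds differed here, so the ratio compares stretches of unequal length.

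The HMGCS1 peak over the stop codon was present in both lists. It was 1229 nt long in shNC with a fold enrichment of 2.33 (FDR 1.70e-08) and 870 nt in shY2-2 with 1.90 (FDR 4.17e-06), with 840 nt shared. The shared part holds 2 copies of GGAC, the core of the most common m6A motif, both in coding sequence ahead of the stop codon. They are shown with 21 nt of the GRCh38 reference on the gene's strand, GGAC in capitals. The A of the first lies in exon 10 (chr5:43292491-43292511, - strand) and that of the second in exon 9 (chr5:43292852-43292872, - strand).
HMGCS1 exon 10: aaggagtaGGACttgtgcatt
HMGCS1 exon 9: ctcagagaGGACacccatcat
These are reference letters within peaks, not sites shown to be methylated.

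IDI1 (ENSG00000067064, chromosome 10, 1039908 to 1049170, - strand), the isomerase that makes dimethylallyl diphosphate, had no peak in the shY2-2 list. Its FPKM was 11.9 in shNC and 17.3 in shY2-2, a log2 ratio of 0.50 at percentile 92.0. In shNC it had 3 peaks on its own strand. The peak near the start (270 nt) had a fold enrichment of 2.37 and an FDR of 0.0646. The peaks in the 3′ UTR had 1.43 over 121 nt (FDR 0.0537) and 7.63 over 60 nt (FDR 0.164), so none of the 3 was at an FDR of 0.05. None of them holds GGAC. Another shNC peak named for IDI1, at the start (fold enrichment 1.53, FDR 0.0417), lies on the opposite strand and overlaps the start peak. Of the 10666 genes kept with a peak in either list, 9.86% had one in the shNC list only and 6.55% in the shY2-2 list only. Among the 8 genes, IDI1 was alone in the first class and ABCA1 in the second.

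FDFT1 (ENSG00000079459, chromosome 8, 11795573 to 11839309, + strand) joins farnesyl diphosphate into squalene, the first step that leads only to sterols. Its FPKM was 9.95 in shNC and 14.85 in shY2-2, a log2 ratio of 0.53 at percentile 93.1, the highest of the 8 genes. Most of the length of its peaks lies at the stop codon and in the 3′ UTR, in exon 8. In shNC this was 1 peak of 778 nt with a fold enrichment of 2.59 (FDR 3.55e-05). In shY2-2 a peak of 569 nt with the same start had a fold enrichment of 1.48 (FDR 4.27e-09), and 2 short peaks followed it, with 1.73 over 91 nt (FDR 0.290) and 2.51 over 61 nt (FDR 0.388). The shY2-2 list has another 2 peaks of FDFT1, both placed in a 5′ UTR by the authors' annotation and outside the reference transcript. One had a fold enrichment of 1.65 over 91 nt (FDR 0.00209) and the other 2.31 over 120 nt (FDR 0.423). The count of 1 peak in shNC and 5 in shY2-2 thus comes in part from how the same stretch was divided.

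SQLE (ENSG00000104549, chromosome 8, 124998497 to 125022283, + strand), the squalene epoxidase, had nearly the same FPKM in both libraries, 17.3 in shNC and 18.05 in shY2-2 (log2 ratio 0.06, percentile 56.6). The fold enrichment of its peak over the stop codon was higher in shY2-2, where that of FDFT1 was lower. In shNC the SQLE peak had a fold enrichment of 1.45 over 210 nt (FDR 0.142), and in shY2-2 it was 599 nt long with 2.09 (FDR 1.66e-06). Its log2 ratio of 0.53 lies at percentile 87.8 of all pairs, and that of FDFT1, -0.81, at percentile 8.69. Peak bounds differed between the lists for both genes, so these ratios compare stretches of unequal length. A second peak spans the start codon in shNC, with a fold enrichment of 1.26 (FDR 0.0309). The shY2-2 peak that overlaps it had 1.13 over 60 nt (FDR 0.330), all in coding sequence.

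The INSIG1 peak at the stop codon reaches into the 3′ UTR. It covered 300 nt in shNC with a fold enrichment of 2.62 (FDR 0.00398) and 270 nt in shY2-2 with 1.98 (FDR 0.273), sharing 210 nt. A further peak of 151 nt in the 3′ UTR was listed in shNC only (fold enrichment 1.58, FDR 0.182). None of these peaks holds GGAC, and the shNC stop codon peak holds 8 copies of the wider m6A motif known as DRACH.

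**Figure D3:**
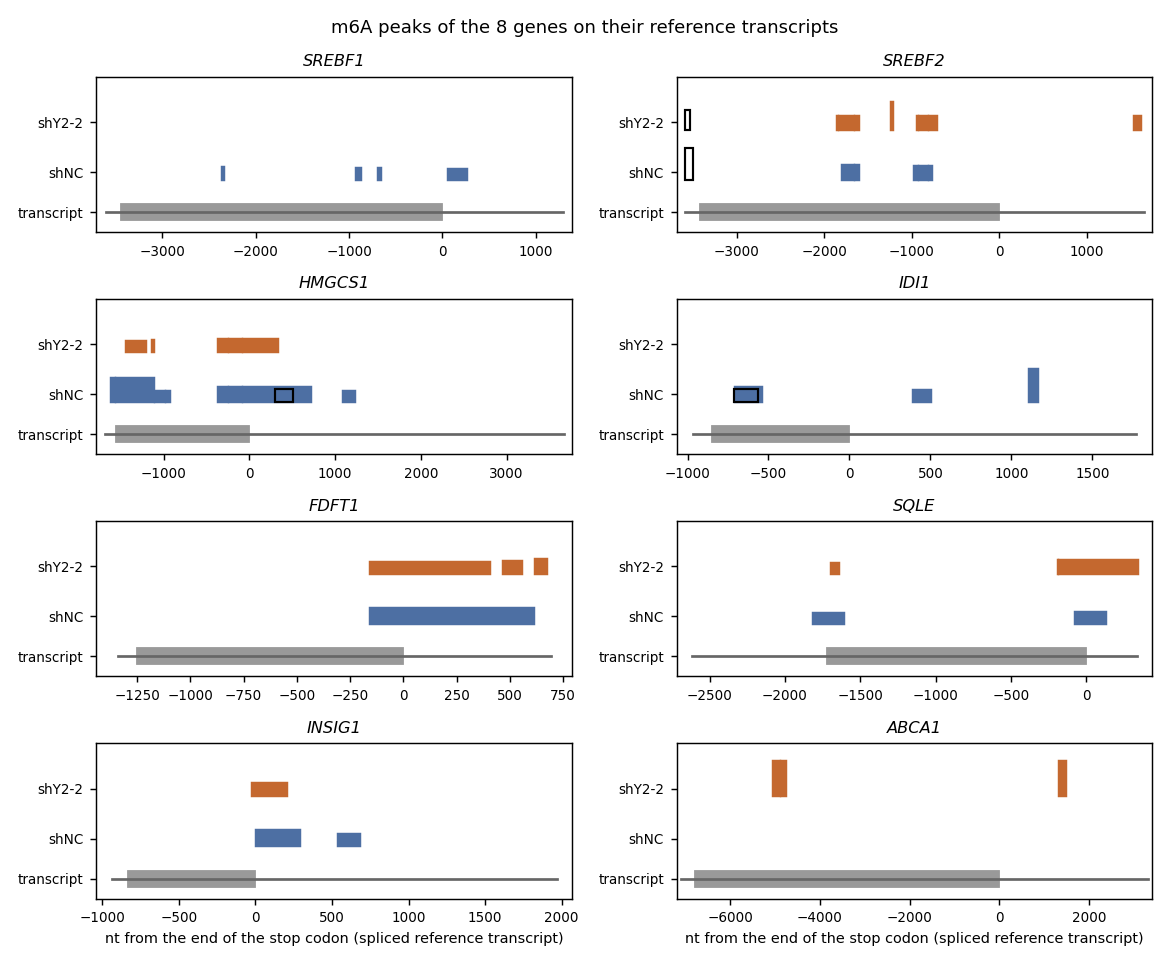
m6A peaks of the 8 genes on the spliced reference transcript of each, with distance in nt from the end of the stop codon, the coding sequence as a grey box, shNC peaks in blue and shY2-2 peaks in orange. Box height increases with fold enrichment (lowest 1.13, highest 8.09), black outlines without fill are peaks on the strand opposite to the gene, and parts of peaks outside the reference transcript are not drawn. HMGCS1, FDFT1, SQLE and INSIG1 have a box across the stop codon in both lists, while IDI1 has no box at all in shY2-2 and ABCA1 none in shNC. SREBF1 also has no box in shY2-2, because its only peak in that list lies outside the reference transcript.

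The shared m6A peaks on the SREBF2 strand lay away from the stop codon. On its own strand it had 3 peaks in shNC and 4 in shY2-2, and 542 nt were shared, 94.8% of the shNC length and 60.02% of the shY2-2 length. The peak of exons 9 and 10 had a fold enrichment of 2.23 in shNC (FDR 0.00204) and 1.93 in shY2-2 (FDR 0.0135). The peak of exons 13 to 15 had 2.04 (FDR 0.000933) and 1.91 (FDR 0.00363). A peak of 60 nt that lies outside the reference transcript had 3.60 in shNC (FDR 0.00871) and overlaps a peak of 210 nt with 6.07 in shY2-2 (FDR 0.00251). The remaining shY2-2 peak lies near the end of the 3′ UTR (fold enrichment 2.02, FDR 0.175).

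The SREBF2 peak of exons 13 to 15 holds 2 copies of GGAC in both lists. The windows below, from GRCh38 on the + strand, are chr22:41897092-41897112 in exon 14 and chr22:41898665-41898685 in exon 15, with GGAC in capitals.
SREBF2 exon 14: tcttttgtGGACtctgtgggg
SREBF2 exon 15: tcggtggtGGACgtctgcaat
The authors' annotation places this peak in a 3′ UTR, while all 211 nt of the shNC peak lie in coding sequence of the reference transcript.

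SREBF1 had most of its peaks in the shNC list, and some of them lie where another gene overlaps it. It had 7 peaks in shNC and 1 in shY2-2 by the authors' gene name. Over all genes with a peak, the median was 2 in both lists, and the 95th percentile was 6 in shNC and 5 in shY2-2. Genes with 1 peak made up 32.6% in shNC and 39.4% in shY2-2. Of the 7, 2 lie on the + strand, where RAI1 ends (chromosome 17, 17681473 to 17811453, named here because the result turns on it). RAI1 had an FPKM of 6.20 in shNC and 10.98 in shY2-2. The peak that both lists share, 17811018 to 17811198, is on the strand of SREBF1 but outside its reference transcript and within the span of RAI1. Its fold enrichment was 1.41 in shNC (FDR 0.289) and 1.48 in shY2-2 (FDR 0.361). Whether its fragments came from SREBF1 or RAI1 was not tested. The other 4 shNC peaks on the SREBF1 strand had fold enrichments from 1.28 to 1.91, and only the one that reaches into exon 6 had an FDR under 0.05 (0.0407).

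The strand of a peak was read from the order of the peaks in the deposited lists, which run along the + strand and then the - strand of each chromosome. Splice junctions of the reference gave the same strand for 8244 of 8247 spliced peaks in shNC and 6142 of 6142 in shY2-2. The order gave a strand for 30342 of 31057 peaks in shNC and 26639 of 27344 in shY2-2. Of the peaks with a strand, 8.21% in shNC and 8.64% in shY2-2 lie opposite to the gene they are named for. For the 8 genes these were 5 of 25 shNC peaks and 1 of 20 shY2-2 peaks. The HMGCS1 and IDI1 ones end at the same base as a + strand transcript of low FPKM. The former is ENSG00000261604, with an FPKM of 0.0290 in shNC and 0.0940 in shY2-2, and the latter is IDI2-AS1, at 0.000655 and 0.0533. SREBF2 has an opposite peak in each list, within SREBF2-AS1 (FPKM 0.578 and 0.7205).

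Over all 8 genes, 25 peaks were listed in shNC and 20 in shY2-2, beside 31057 and 27344 in the whole lists. On the genes' own strands the peaks of the 8 genes covered 5916 nt and 4658 nt, with 3067 nt shared. In the shNC list 14 of the 25 met a peak of the same gene in the other list, where the share over all peaks was 55.3%. In the shY2-2 list 15 of the 20 did, where it was 64.7%. Of the 14 shNC peaks that met one, 8 had a lower fold enrichment in shY2-2 and 6 a higher one, against 55.4% lower over all pairs. Their median log2 ratio was -0.13, against -0.06 over all pairs. Strand was not required for these pairs. A + strand shNC peak named for SREBF1 and another named for HMGCS1 were paired with - strand shY2-2 peaks. Those shY2-2 peaks also pair with an shNC peak on their own strand, and both opposite-strand pairs are among the 6 higher ones. On the genes' own strands, 7 of 11 were lower. GGAC was found in 12 of the 25 peaks listed for shNC and in 9 of the 20 listed for shY2-2, where the shares over all peaks were 61.0% and 60.6%. The peaks of the 8 genes were read on the gene's strand, also where the peak lies opposite. Among own-strand peaks, GGAC was in 10 of 20 in shNC and 8 of 19 in shY2-2.

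**Figure D4:**
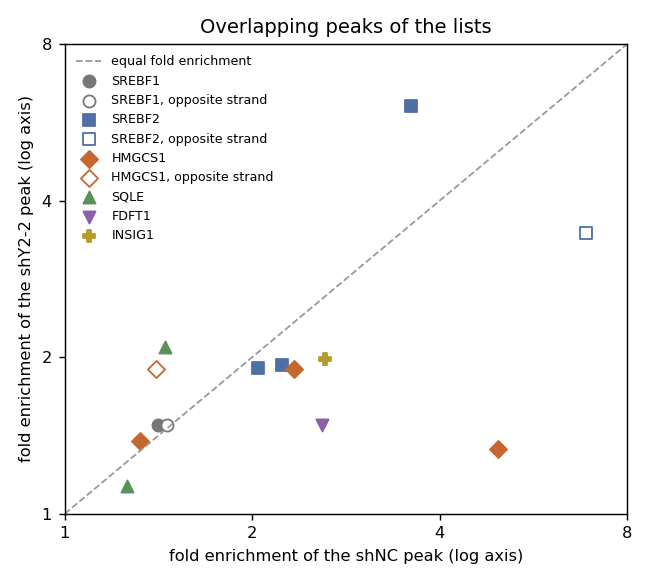
Fold enrichment (IP over input, log axes) of shNC peaks of the 8 genes and of the shY2-2 peak that shares most sequence with each, 14 pairs. Open symbols are shNC peaks opposite to the gene's strand, and the dashed line marks equal values. The open SREBF1 and HMGCS1 symbols are paired with shY2-2 peaks on the gene's strand, which also belong to another pair. The HMGCS1 start peak lies farthest below the line, at 4.96 and 1.33.

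ABCA1 (ENSG00000165029, chromosome 9, 104781002 to 104928237, - strand) loads cholesterol onto apolipoprotein A-I. Its FPKM was 1.92 in shNC and 0.668 in shY2-2, a log2 ratio of -0.81 at percentile 4.17. With a pseudocount of 0.1 the ratio was -1.39. Its low level makes it the gene of the 8 whose ratio depends most on the pseudocount. The shY2-2 list has 2 ABCA1 peaks and the shNC list none. Both have a fold enrichment of 8.09 and an FDR of 0.603, in the library in which the gene was under 1 FPKM. One covers 300 nt of exons 14 and 15 and the other 180 nt of the 3′ UTR.

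The ABCA1 3′ UTR holds 4 copies of CAATGCA, the complement of the miR-33 seed printed above. The first 3 lie together, starting 138, 143 and 153 nt after the stop codon, and the fourth starts at 1478 nt, within the shY2-2 peak. Over all shY2-2 peaks, 1.64% hold these letters. The windows of the first and the last are shown from GRCh38 on the gene's strand, with the match in capitals at chr9:104784174-104784180 and chr9:104782834-104782840, - strand. A GGAC of the coding peak, in exon 14 (chr9:104831053-104831073, - strand), is shown with them.
ABCA1 3′ UTR, first match: tactattCAATGCAatgcaat
ABCA1 3′ UTR, last match: attgcaaCAATGCAaaagcca
ABCA1 exon 14: ccctttgaGGACatgcggtac
A match to the seed is a description of the reference and does not show that a miRNA acts there.

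Other genes of cholesterol transport and storage had no shared direction. Of the 12 listed, 11 were kept, with 5 higher and 6 lower in shY2-2 and a median log2 ratio of -0.11. The highest were NR1H3, the liver X receptor alpha (0.30, FPKM 2.84 and 3.73), and STARD3, a sterol carrier of late endosomes (0.22, FPKM 5.59 and 6.67). The lowest were ABCA1 and LRP1, an endocytic receptor (-0.49, FPKM 3.43 and 2.15). The gene not kept was ABCG1, which also exports cholesterol and had an FPKM of 0.568 in shNC and 0.160 in shY2-2. ABCA1 was the only gene of the 11 that was more than 1.5-fold lower, beside 8.92% of all genes. LRP1 passed as well with a pseudocount of 0.1 (-0.65) and against genes of like GC content (-0.60). Over all genes, 1683 of 12268 and 973 of 12202 were more than 1.5-fold lower under these settings.

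Of the 8 fatty acid genes that SREBP1 activates, 2 were higher and 6 lower in shY2-2, with a median log2 ratio of -0.13. Over all genes kept, 50.3% were higher and the median was 0.00. SCD, the desaturase that makes oleate, had the lowest ratio (-0.44) with an FPKM of 123.6 and 90.7. ACLY, which supplies cytosolic acetyl-CoA, followed at -0.27 (FPKM 146.1 and 121.0). The highest were the elongase ELOVL6 (0.32, FPKM 2.67 and 3.56) and the desaturase FADS1 (0.01, FPKM 24.1 and 24.2), which fell on the lower side of 0 with GC content taken into account (-0.05). None was past 1.5-fold in either direction.

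Ratios over all genes moved with transcript length and base composition, and these values belong beside those above. Over 12202 genes with a reference transcript, the median log2 ratio went from 0.11 in the shortest of 10 equal classes of spliced length to -0.20 in the longest. It went from -0.22 in the lowest of 10 classes of GC content to 0.11 in the highest. The rank correlation of the ratio across genes, which are not replicates, was -0.25 with length and 0.28 with GC content. ABCA1, with 10408 nt, is in the longest class, SREBF1, SREBF2 and HMGCS1 are in class 8, and FDFT1, with 2035 nt, is in class 4.

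Each gene's ratio was therefore also set against the median of its own class. With length, ABCA1 was at -0.61, SREBF1 at -0.40, SREBF2 at -0.15, HMGCS1 at 0.28, SQLE at 0.07, INSIG1 at 0.28, IDI1 at 0.45 and FDFT1 at 0.48. With GC content, ABCA1 was at -0.78, SREBF1 at -0.59, SREBF2 at -0.33, HMGCS1 at 0.38, SQLE at 0.02, INSIG1 at 0.36, IDI1 at 0.73 and FDFT1 at 0.49. None of the 8 genes changed its side of 0 under these centrings. With GC content, SREBF1 (narrowly, at -0.587) and IDI1 also passed 1.5-fold. Over all 12202 genes with this centring, 973 were more than 1.5-fold lower and 587 more than 1.5-fold higher. The sterol synthesis list had 18 of 21 genes higher with length and 17 of 21 with GC content, with medians of 0.28 and 0.37. The fatty acid list had 3 of 8 and 1 of 8 higher, with medians of -0.08 and -0.24. The part of length and GC content in the original ratios was not tested.

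**Figure D5:**
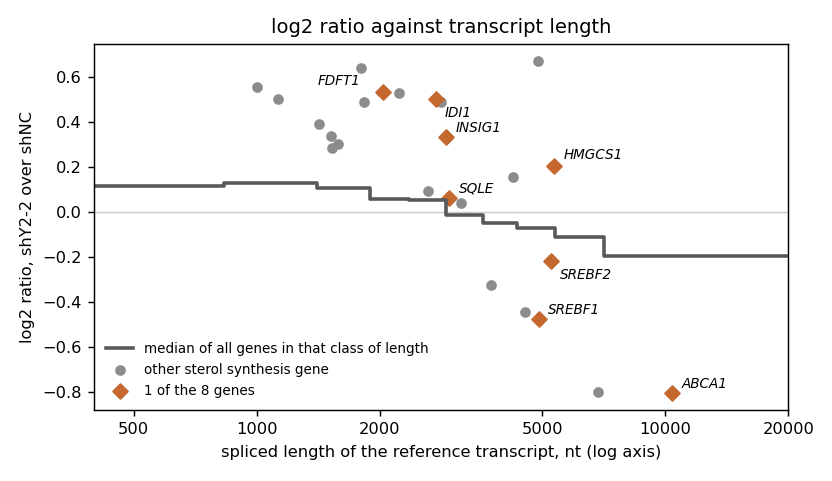
log2 ratio of FPKM + 1, shY2-2 over shNC, against the spliced length of the reference transcript (log axis), for the 8 genes (diamonds) and the other sterol synthesis genes (circles). The line is the median of all genes in each of 10 classes of length and goes from 0.11 to -0.20. ABCA1 is the longest of the genes drawn and the lowest, and FDFT1, IDI1, INSIG1 and HMGCS1 lie above the line.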

How the data were processed

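Input and m6A IP libraries of A549 cells, 1 of each per condition, were grouped by their labels. Reads were mapped by the authors with HISAT2 (GRCh38), and StringTie gave the deposited FPKM per gene. They called peaks with exomePeak on the IP against the input of each condition, and the deposited fold enrichment is a linear ratio, the deposited p-value is that of the peak, and the deposited log10 scores give p-value and FDR. Every position was counted once. Their annotation release and the threshold for peaks are not given in the sources used here. No FPKM column was without a sample, and the depth behind values is unknown.

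Ratios used a pseudocount of 1 and the genes that reached an FPKM of 1 in either input. Peaks of the same named gene met when exonic blocks shared at least 1 bp, whether or not their strands were the same. Reference transcripts were the canonical ones of GENCODE release 44 on GRCh38, the build of the files. miRNA and promoter sequences came from RefSeq. Named genes are the 8 genes, YTHDF2, and the 2 highest and 2 lowest ratios of each list. Some genes that this rule picks are not reported here. ABCG1, MSMO1, FASN and genes opposite to peaks were added after their values were seen. The 8 genes and the lists were chosen with earlier results of these data known, so no list is independent evidence.

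Alternatives were another pseudocount, centring, other FPKM filters, stricter peaks, another overlap rule and locations by the reference transcript. Centring by length or GC content and the restriction to own-strand peaks were chosen after the data were seen. In simulated data for all 12268 genes kept, 200 differences larger than 2-fold were planted without noise, and 182 passed 2-fold. As no noise was added, this count describes only how the pseudocount shrinks ratios at low FPKM. It says nothing about detection between libraries. Block overlaps were right in 300 of 300 simulated cases. Python 3.11.15, NumPy 2.4.6, pandas 2.3.3, pysam 0.24.0 and matplotlib 3.10.9 were used.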

Additional observations from a re-analysis of the deposited data

How the results depend on the processing

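None of the 8 genes and no list median changed sign under the alternatives run, while single genes of the lists with ratios near 0 did, such as FADS1 (0.01, and -0.05 with GC centring) and FASN (-0.13, and 0.07 with length centring). A pseudocount of 0.1 moved ABCA1 from -0.81 to -1.39, and length centring moved it to -0.61. GC centring moved SREBF1 to -0.59, SREBF2 to -0.33, HMGCS1 to 0.38, IDI1 to 0.73 and the fatty acid median to -0.24, left 2 genes of SREBP control lower instead of 4, and left 1 fatty acid gene higher instead of 2. Centring on the median of all genes also left 1. An FPKM of at least 5 keeps fewer genes. At this filter, 4 of 7 genes of SREBP control, 3 of 7 of transport and 1 of 6 fatty acid genes were higher. Over all genes at this filter, 3672 of 6696 were higher, with a median of 0.05. Peaks depended most on thresholds. Of the 25 shNC peaks, 10 had an FDR of at most 0.05, 4 of at most 0.001, 10 a fold enrichment of at least 2 and 3 of at least 4. Of the 20 shY2-2 peaks, the counts were 8, 3, 8 and 3. Shares over all peaks at these cutoffs are not given here, so these counts cannot be set against the whole lists. With both lists cut at an FDR of at most 0.05, overlaps were found for 6 of 10 shNC peaks, instead of 14 of 25. From the shY2-2 side it was 6 of 8, instead of 15 of 20. The fall in these counts thus goes with fewer peaks kept. How often peaks of all genes overlap at this cutoff is not given here, and 55.3% and 64.7% belong to the uncut lists. By the reference transcript, 10 shNC peaks lay in 3′ UTRs instead of 16 by the authors' annotation. Of the recomputed values, 78 planned and 53 added ones stayed within 0.1 (log2) or 1.5 times (counts), and 65 planned and 8 added ones did not, mostly peak counts of single genes. No paired analysis was possible because each condition has 1 library of a kind.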

Other observations

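Other gene sets, chosen after the data were seen, gave smaller medians than the sterol synthesis list. The genes annotated to the GO term cholesterol biosynthetic process had 33 of 36 members kept, of which 22 were higher and 11 lower in shY2-2, with a median log2 ratio of 0.17. The KEGG set steroid biosynthesis had 16 of 19 kept, of which 13 were higher and 3 lower, with a median of 0.18. In both sets the share of higher genes is to be read beside 50.3% of all genes kept. Both share genes with the sterol synthesis list.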
